A study of Mus musculus with 12 samples.

Results

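The germinal centre (GC) B cells of this study were recognised by 3 surface signs, and the genes behind those signs are described here: Fas, which encodes CD95, Ptprc, which encodes CD45 and its B cell form B220, and Cmah and St6gal1, the enzymes that decide whether the GL7 glycan is made. They were chosen by symbol from the named loci of the deposited tables, and each matched 1 locus. All 4 passed the filter on low values and are 4 of 14596 tested genes, out of 43613 genes or groups of overlapping genes in the named loci. The 12 bulk RNA libraries came from splenic B cells of 6-month-old female mice on a C57BL/6 background that carried the lupus susceptibility interval Sle1b, in 4 groups of 3. The groups were GC cells of B6.Sle1b.IFNaR1-/- mice, GC cells of B6.Sle1b mice, non-GC cells of B6.Sle1b.IFNaR1-/- mice and non-GC cells of B6.Sle1b mice. The libraries of the first genotype, labelled as lacking the type I interferon receptor gene Ifnar1, are called Ifnar1KO and the others Sle1b. Sle1b is thus shared by every group, and no mice without it were used here. Live B220+ cells were sorted as GC cells when positive for GL7 and CD95 and as non-GC cells when negative for both. The sorted cells came from splenocyte pools, and no label states whether replicates were separate animals. P-values here therefore describe the scatter of these libraries, part of which may be technical.

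CD95 is a death receptor of the tumour necrosis factor receptor family: bound by its ligand FasL, it recruits the adaptor Fadd and caspase-8 and starts apoptosis, and GC B cells are known to carry much of it. CD45 is a receptor tyrosine phosphatase of all nucleated blood cells that keeps Src family kinases such as Lyn in an activatable state. Its form B220 arises by splicing and by glycosylation, since it keeps variable exons that other leukocytes skip. GL7 is not a protein but a sialylated glycan. The antibody binds N-acetylneuraminic acid that St6gal1 has attached to a galactose of a lactosamine chain. Cmah hydroxylates the activated form of this sugar to N-glycolylneuraminic acid, which the antibody binds poorly, and mouse GC B cells are known for low Cmah. Because the cells were sorted on these 3 signs, a difference in Fas between GC and non-GC libraries bears on the sort itself and is no independent finding. The same limit holds for Cmah and St6gal1, since the cells were sorted on the glycan these enzymes shape. Their differences between GC and non-GC libraries are not independent of the sort either, although no transcript was itself the sorted quantity.

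Values are FPKM, fragments scaled to transcript length and to the number of mapped fragments, as the authors computed them with Cuffdiff for pairs of libraries of 1 batch, and joined here within each batch. The 3 batches carry the same numbers as the replicates, and a level in 1 batch cannot be set directly against a level in another, since the tables were normalized separately. Differences were tested as log2(FPKM + 1), a scale that shrinks differences between low values, with limma over all 12 libraries and batch as a block, 6 residual degrees of freedom, and Benjamini-Hochberg adjustment over the 14596 genes. An adjusted p under 0.05 passed. No pair of libraries was identical, and the highest correlation was 0.916.

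The batches differed in content. Batches 1 and 2 had 9481 to 11242 tested genes at or above 1 FPKM in a library, whereas the 4 libraries of batch 3 had 4209 to 7249. The summed level of 7 pan B cell markers was 801 to 1640 FPKM in batches 1 and 2 and 29.4 to 209 FPKM in batch 3, where the 2 GC libraries had 29.4 and 30.1 FPKM. The 8 GC B cell markers summed to 284 to 946 FPKM in GC libraries and 47.0 to 87.9 FPKM in non-GC libraries of batches 1 and 2, with no overlap. In batch 3 the same sum was 7.92 and 16.1 FPKM in GC libraries and 5.18 and 13.8 FPKM in non-GC libraries, and the markers did not separate the labels. The main differences below are therefore also given for batches 1 and 2, with the filter redone on their 8 libraries (12284 genes tested). Calls there depend on that filter: on the same 8 libraries, but with the 14596 genes chosen over all 12, 1 gene passed for GC against non-GC over both genotypes in place of 620, and none of the genes named below as passing in batches 1 and 2 did. Ifnar1 itself measured 14.2, 15.4 and a listed 0 FPKM in GC libraries labelled Ifnar1KO (replicates 1, 2 and 3) and 8.28, 9.89 and 6.90 FPKM in Sle1b GC libraries. The non-GC libraries held 51.5, 69.1 and 2.61 FPKM in libraries labelled Ifnar1KO and 14.5, 36.1 and 3.38 FPKM in Sle1b. The transcript was thus higher under the knockout label in batches 1 and 2 and lower in batch 3. The FPKM covers the whole locus and cannot tell which part was read, so every genotype direction below rests on the labels alone, and Ifnar1KO stands for libraries labelled so.

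Fas, on chromosome 19 (chr19:34290659-34327770, GRCm38), was higher in the GC library of each pair in batches 1 and 2 and not in batch 3. It measured 13.9, 78.1 and 10.98 FPKM in Ifnar1KO GC libraries (replicates 1, 2 and 3) and 3.10, 1.73 and 15.5 FPKM in Ifnar1KO non-GC libraries. In Sle1b it measured 13.1, 57.9 and 4.79 FPKM in GC libraries and 5.54, 9.76 and 5.002 FPKM in non-GC libraries. Within batches 1 and 2 both GC libraries lay above both non-GC libraries. The share of all genes with that order was not counted. In batch 3 the Ifnar1KO non-GC library was the highest of the 4. The log2 differences between GC and non-GC cells were 1.86, 4.86 and -0.47 in Ifnar1KO and 1.11, 2.45 and -0.05 in Sle1b.

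Over both genotypes the difference was 1.63 (SE 0.63), a 3.09-fold higher level, and limma's test was not passed (adjusted p = 0.213; higher in 4 of 6 pairs). Without batch 2 it was 0.61. Only 4 of the 14596 genes passed in that comparison, 0.0274%, namely Cd55, Iglc4, Mki67 and Tpx2. In batches 1 and 2 the difference was 2.57 (SE 0.52, 5.94-fold, limma adjusted p = 0.0326, higher in 4 of 4 pairs), and Fas passed there together with 5.05% of the 12284 genes. With the filter of all 12 libraries it did not pass on those 8 (adjusted p = 0.117). Flipping the signs of the 6 within-batch differences, an exact permutation test of this single gene, gave a two-sided p = 0.125. The smallest value 6 pairs allow is 0.0312. All exact tests here treat the pairs as independent, although pairs of 1 batch share its normalization and can move together. Their p-values may therefore be too small. Rough depth can be read from the files, since low values step by whole reads. On the longest coding transcript, Fas-201 of 1481 bases (GENCODE M21), the levels stood for about 10 reads (Ifnar1KO non-GC replicate 2) to 367 reads (Sle1b GC replicate 2). The low non-GC values of Fas are therefore imprecise. So is the batch 3 difference in Sle1b, which rests on about 22 reads in the GC and 32 in the non-GC library.

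The window around the RefSeq start of Fas is shown because Bcl6, the master repressor of the GC programme, and STAT factors share the palindrome TTCNNNGAA. It runs from 250 bases before to 50 bases after the start (chr19:34290409-34290708, GRCm38.p6, plus strand), with the match in capitals.

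Fas promoter: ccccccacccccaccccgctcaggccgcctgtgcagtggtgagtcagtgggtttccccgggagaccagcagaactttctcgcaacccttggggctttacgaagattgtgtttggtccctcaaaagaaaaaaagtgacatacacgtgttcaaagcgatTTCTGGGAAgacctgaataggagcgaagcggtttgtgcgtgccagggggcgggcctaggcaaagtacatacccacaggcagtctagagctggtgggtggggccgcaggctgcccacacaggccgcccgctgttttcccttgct

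The match begins at position -93 counted from the start. The letters TTCNNNGAA, read on both strands, occur in 8.30% of 32851 promoter windows of that length, so such a match is common. The core of the interferon-stimulated response element, searched as 2 copies of GAAA with any 2 bases between them on both strands, occurs in 3.44% of them. Neither was found in the 7 other windows of Ptprc (2 starts), Cmah (2 starts) and St6gal1 (3 starts), and the 2 motifs did not overlap in Fas, which had no match to the second. A match is a description of letters and no evidence of binding.

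**Figure D1:**
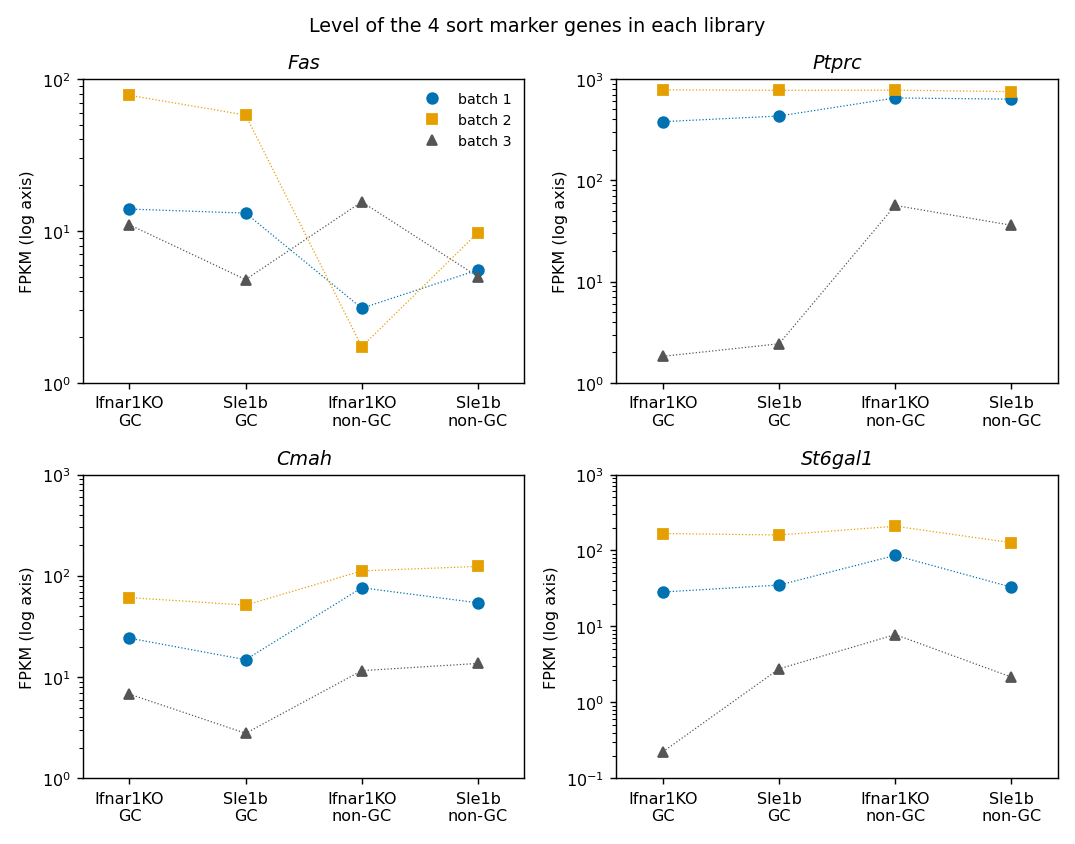
FPKM (log axis) of Fas, Ptprc, Cmah and St6gal1 in each of the 12 libraries, by group, with 1 point per library and the libraries of a batch joined by a dotted line. Batch 3 lies below the others for Ptprc, Cmah and St6gal1, with Ptprc at 1.83 and 2.44 FPKM in its GC libraries.

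Ptprc, on chromosome 1 (chr1:138062424-138175708, GRCm38), was the most abundant of the 4 genes in batches 1 and 2, where at least 99.7% of tested genes lay below it in every library. It measured 379, 782 and 1.83 FPKM in Ifnar1KO GC libraries and 649.9, 776 and 56.5 FPKM in Ifnar1KO non-GC libraries. In Sle1b it measured 431, 773 and 2.44 FPKM in GC libraries and 632, 751 and 36.0 FPKM in non-GC libraries. Within batch 2 the 4 libraries were nearly level, within batch 1 the GC libraries lay below the non-GC ones, and within batch 3 the GC libraries lay far below. The log2 differences between GC and non-GC cells were -0.78, 0.01 and -4.34 in Ifnar1KO and -0.55, 0.04 and -3.43 in Sle1b.

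Ptprc did not pass limma's test over both genotypes, with a log2 difference of -1.51 (SE 0.61, adjusted p = 0.231; lower in 4 of 6 pairs; exact permutation p = 0.125). In batches 1 and 2 it was -0.32 (SE 0.28, adjusted p = 0.521), so most of the pooled difference came from batch 3. Of the 17 deposited tables, the authors called Ptprc significant in 3, and all 3 set a GC library of batch 3 against a non-GC library of batch 3; the smallest q-value in the authors' deposited tables was 0.0369. The authors' deposited tables called Fas, Cmah and St6gal1 significant in 0 of 17 tables. Beside the low Ptprc of the batch 3 GC libraries, about 59 and 41 reads against 1270 and 888 reads in the non-GC libraries of Ifnar1KO and Sle1b, the pan B cell markers were also low there (29.4 and 30.1 FPKM against 204 and 209 FPKM). The summed T cell markers were at 20.2 and 41.3 FPKM in those GC libraries and at 8.11 and 5.65 FPKM in the non-GC libraries of batch 3. Of the 6 T cell markers, 5 were listed at 0 in Ifnar1KO GC replicate 3 and 3 in Sle1b GC replicate 3. The part of these in the result was not tested, and in bulk samples fewer cells of a type and less RNA per cell cannot be told apart.

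B220 depends on which exons the transcript holds, and a gene-level FPKM counts all forms together. The 3 variable exons, known as A, B and C, are exons 4, 5 and 6 of the longest coding transcript (Ptprc-207, 5074 bases, GENCODE M21, minus strand of chromosome 1, GRCm38). Of the 3 long Ptprc transcripts in that annotation, 1 holds them. They are shown because the antibody of the sort reads the protein they encode, while the FPKM above does not distinguish transcripts with and without them.

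Ptprc exon 4 (chr1:138122456-138122584): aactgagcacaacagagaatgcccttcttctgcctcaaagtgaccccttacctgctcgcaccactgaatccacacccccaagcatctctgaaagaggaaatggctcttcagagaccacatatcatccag

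Ptprc exon 5 (chr1:138120020-138120166): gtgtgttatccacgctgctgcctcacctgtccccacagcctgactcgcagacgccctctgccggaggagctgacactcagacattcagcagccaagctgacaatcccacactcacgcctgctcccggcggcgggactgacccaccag

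Ptprc exon 6 (chr1:138117754-138117894): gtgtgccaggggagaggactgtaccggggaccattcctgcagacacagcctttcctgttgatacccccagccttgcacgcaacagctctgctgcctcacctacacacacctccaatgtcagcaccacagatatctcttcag

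These exons span 129, 147 and 141 bases. The level of Ptprc therefore describes CD45 as a whole and gives no share of B220. Plasmacytoid dendritic cells, which also carry B220, could fall into the non-GC gate. Their 5 markers summed to 5.21 to 51.3 FPKM in GC libraries and 51.7 to 181 FPKM in non-GC libraries of batches 1 and 2, and in 3 of those 4 GC libraries 3 of the 5 were listed at 0. In batches 1 and 2 Siglech and Ly6d fell (adjusted p = 0.0264 and 0.0126). Ly6d, which B cells also express, made up most of the sum, and Siglech measured 0 to 0.27 FPKM in GC and 2.75 to 7.54 FPKM in non-GC libraries of those batches. Their part in the GC differences was not tested.

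Cmah, on chromosome 13 (chr13:24327420-24477285, GRCm38), was lower in the GC library of all 6 within-batch pairs. It measured 24.2, 60.9 and 6.80 FPKM in Ifnar1KO GC libraries and 76.2, 112 and 11.6 FPKM in Ifnar1KO non-GC libraries. In Sle1b it measured 14.9, 51.4 and 2.79 FPKM in GC libraries and 54.1, 124 and 13.6 FPKM in non-GC libraries. Within each batch both GC libraries lay below both non-GC libraries, an order whose share among all genes was not counted. The log2 differences were -1.61, -0.87 and -0.69 in Ifnar1KO and -1.80, -1.25 and -1.95 in Sle1b, and batch 3 lay at both ends of the range.

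Over both genotypes the log2 difference of Cmah was -1.36 (SE 0.35), a level 2.57-fold lower, with a 95% interval of -2.11 to -0.61. It missed the threshold of limma's test across all genes (adjusted p = 0.109). In batches 1 and 2 it fell by 1.38 on the log2 scale (SE 0.30, limma adjusted p = 0.0378, lower in 4 of 4 pairs), among the 5.05% of genes that passed there. With the filter of all 12 libraries it did not pass on those 8 (adjusted p = 0.0838). The exact permutation test over the 6 pairs gave p = 0.0312, unadjusted, which is the smallest value it can give. That test counts the Ifnar1KO and Sle1b pairs of a batch as independent, which was not shown, so this p may be too small. In all, 16 exact tests were run on the 4 genes, 8 over the 6 pairs and 8 over the 4 pairs of batches 1 and 2, where 0.125 is the smallest p. Of the 14596 genes, 8.65% were lower in GC cells in all 6 pairs, and Cmah was the 1 member among them. By genotype the difference was -1.06 (SE 0.49, adjusted p = 0.40) in Ifnar1KO and -1.67 (SE 0.49, adjusted p = 0.436) in Sle1b, and in batches 1 and 2 it was -1.24 in Ifnar1KO and -1.53 in Sle1b (adjusted p = 0.182 and 0.19). The test of the difference between those, the interaction, gave 0.61 (SE 0.70, 95% interval -0.90 to 2.12, adjusted p = 0.994). Converted with the length of the longest coding transcript, Cmah-202, the levels stood for about 93 to 6525 reads, and for fewer if shorter forms were present. When libraries were scaled to their pan B cell markers, the difference was -0.28 over both genotypes and turned to 0.02 in Ifnar1KO; that scaling moved the median of all genes to 0.235, against -0.254 as deposited. The deposited coordinates cover a stretch shared with the antisense gene Gm11342 and the pseudogene Gm11344, which the authors quantified apart. Gm11344 differed by -1.54 (SE 0.42, adjusted p = 0.117) between GC and non-GC cells and fell by 1.96 in batches 1 and 2 (adjusted p = 0.0369). Gm11342 differed by -0.76 (SE 0.50, adjusted p = 0.44). How far reads of 1 of these genes were assigned to another was not tested, and no strand-keeping protocol is stated.

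**Figure D2:**
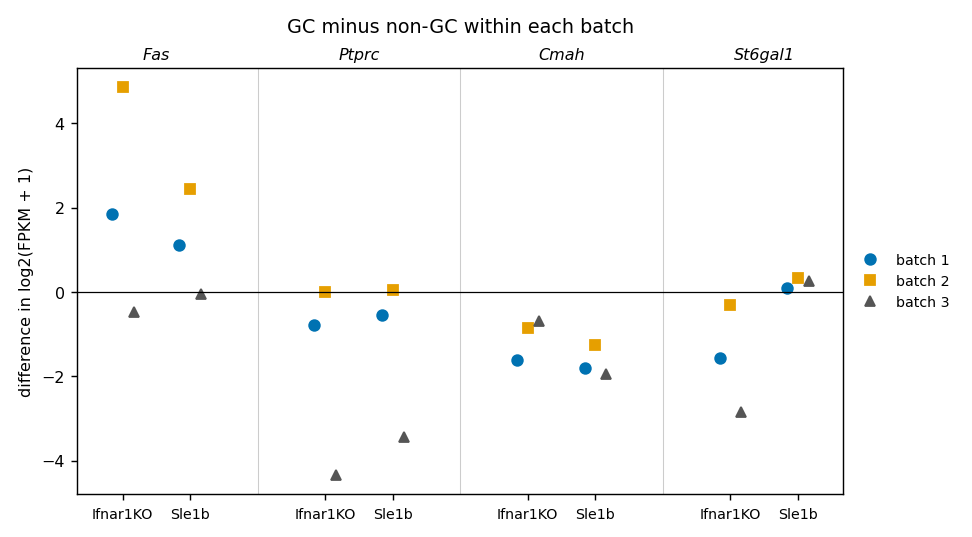
Differences in log2(FPKM + 1) between GC and non-GC cells within each batch, for the Ifnar1KO and Sle1b libraries and each gene, with 1 point per pair of libraries. All 6 points of Cmah lie below 0, between -0.69 and -1.95, whereas those of St6gal1 lie below 0 in Ifnar1KO and above 0 in Sle1b.

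St6gal1, on chromosome 16 (chr16:23175288-23361222, GRCm38), was lower in the GC library of every Ifnar1KO pair and higher in that of every Sle1b pair, a contrast that did not pass its test. How many of all genes had such opposite signs was not counted. It measured 28.4, 167 and 0.224 FPKM in Ifnar1KO GC libraries and 86.2, 209 and 7.82 FPKM in Ifnar1KO non-GC libraries. In Sle1b it measured 35.1, 160.0 and 2.77 FPKM in GC libraries and 32.9, 127 and 2.16 FPKM in non-GC libraries. The steps in Sle1b were the smaller ones in batches 1 and 3. The log2 differences between GC and non-GC cells were -1.57, -0.32 and -2.85 in Ifnar1KO and 0.09, 0.34 and 0.26 in Sle1b.

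In Ifnar1KO the fitted difference of St6gal1 was -1.58 (SE 0.56, 95% interval -2.78 to -0.37, limma adjusted p = 0.324). In Sle1b it was 0.23 (SE 0.56, 95% interval -0.98 to 1.43, adjusted p = 0.93). The interaction was -1.81 (SE 0.79, unadjusted p = 0.0397, adjusted p = 0.994), so the opposite directions did not pass the test of their difference; in batches 1 and 2 the interaction was -1.16 (SE 0.59, adjusted p = 0.947). In Ifnar1KO 0.0206% of the genes passed (3 genes), and in Sle1b and for the interaction 0%, with 1360 and 533 genes at an unadjusted p under 0.05. The batch 3 value in Ifnar1KO GC cells stood for about 8 reads, and without batch 3 the difference in Ifnar1KO was -0.94. Over both genotypes the difference was -0.68 (SE 0.39, adjusted p = 0.383; exact permutation p = 0.406), and it turned to 0.12 when libraries were scaled to their pan B cell markers. The deposited coordinates cover a stretch shared with other annotated genes, which were quantified apart and stayed low. B630019A10Rik reached 3.49 FPKM and BC106179 0.514 FPKM in their highest library.

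The level of St6gal1 relative to Cmah, on the log2(FPKM + 1) scale, sets the enzyme that builds the GL7 epitope against the one that alters its sugar. It was 0.22, 1.44 and -2.67 in Ifnar1KO GC libraries and 0.18, 0.89 and -0.51 in Ifnar1KO non-GC libraries. In Sle1b it was 1.19, 1.62 and -0.01 in GC libraries and -0.70, 0.03 and -2.21 in non-GC libraries. The GC library was the higher of the pair by 1.89, 1.59 and 2.21 in Sle1b, which is 3 of 3 batches. Most of this restates the lower Cmah, which differed by -1.80, -1.25 and -1.95 there, beside 0.09, 0.34 and 0.26 for St6gal1. The batch 3 value in Sle1b rests on about 41 reads of St6gal1 in the GC and 46 in the non-GC library. Cmah had about 93 reads in that GC library, and the GC markers did not separate the labels in batch 3. In Ifnar1KO the differences were 0.05, 0.55 and -2.16, and the batch 3 value rests on the St6gal1 level of about 8 reads. This combination was formed with the values known and was given no test.

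**Figure D3:**
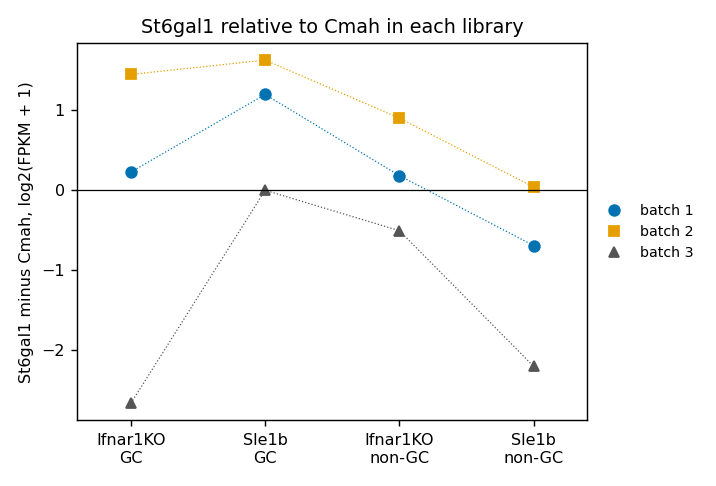
St6gal1 minus Cmah in log2(FPKM + 1) in each library, by group, with the libraries of a batch joined by a dotted line. In each batch the Sle1b GC library lies above the Sle1b non-GC library, by 1.59 to 2.21.

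Between the genotypes no gene passed limma's test in either cell type (0% of 14596 in GC cells, in non-GC cells and over both, with 930, 260 and 578 genes at an unadjusted p under 0.05). St6gal1 in non-GC cells was higher in Ifnar1KO than in Sle1b libraries by 1.36, 0.72 and 1.48 in batches 1, 2 and 3. The fitted difference was 1.19 (SE 0.56, 2.28-fold, 95% interval -0.02 to 2.39, unadjusted p = 0.0533, adjusted p = 1.0), and 1.04 (SE 0.42, adjusted p = 1.0) in batches 1 and 2. In GC cells St6gal1 differed by -0.30, 0.06 and -1.62, and its fitted difference in batches 1 and 2 was -0.12 (SE 0.42).

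Cmah was higher in Ifnar1KO than in Sle1b GC cells in 3 of 3 batches, by 0.67, 0.24 and 1.04 (fitted 0.65, SE 0.49, 95% interval -0.41 to 1.72, adjusted p = 0.821). In non-GC cells it differed by 0.49, -0.15 and -0.22. Its fitted differences in batches 1 and 2 were 0.46 in GC cells and 0.17 in non-GC cells (SE 0.42 each). Fas differed by 0.08, 0.43 and 1.05 in GC cells (fitted 0.52, SE 0.89, adjusted p = 0.92) and by -0.67, -1.98 and 1.46 in non-GC cells (fitted -0.40, SE 0.89, adjusted p = 1.0, and 0.04 under the pan B cell scaling). The fitted differences of Fas in batches 1 and 2 were 0.25 in GC cells (adjusted p = 0.948) and -1.33 in non-GC cells (adjusted p = 1.0; SE 0.74 each). Ptprc differed by -0.19, 0.02 and -0.28 in GC cells and 0.04, 0.05 and 0.64 in non-GC cells. Its fitted 95% intervals, -2.02 to 1.72 in GC cells and -1.63 to 2.11 in non-GC cells, are too wide to show that the genotypes were alike. Ptprc's fitted differences in batches 1 and 2 were -0.08 in GC cells and 0.04 in non-GC cells (SE 0.40 each). Exact permutation tests over the 6 pairs gave p = 0.969 for Fas, 0.781 for Ptprc, 0.156 for Cmah and 0.594 for St6gal1.

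**Figure D4:**
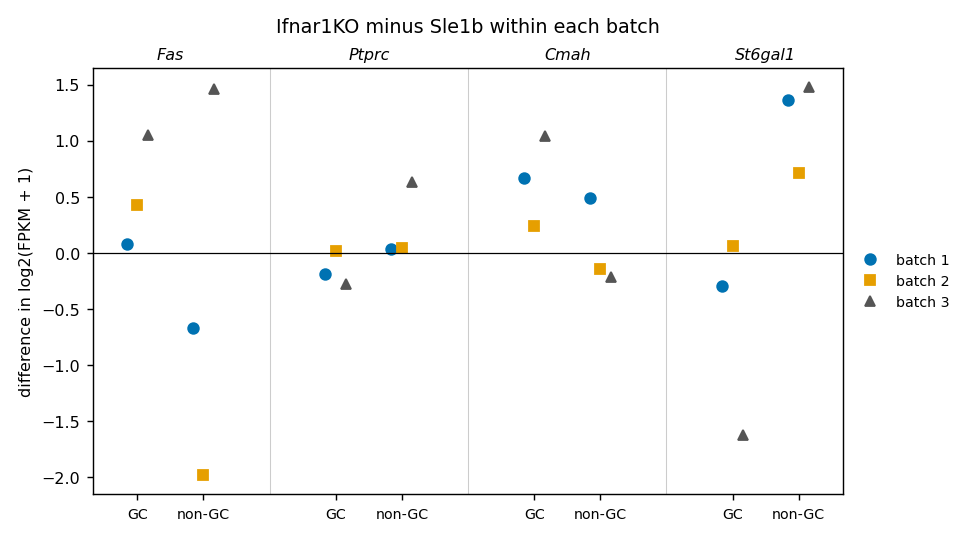
Differences in log2(FPKM + 1) between Ifnar1KO and Sle1b libraries within each batch, in GC and non-GC cells, with 1 point per pair of libraries. St6gal1 in non-GC cells lies above 0 in all 3 batches, between 0.72 and 1.48, while Ptprc in batches 1 and 2 lies within 0.19 of 0.

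Over the 3 batches, Fas averaged 34.3 ± 37.9 FPKM in Ifnar1KO GC, 25.3 ± 28.6 in Sle1b GC, 6.79 ± 7.61 in Ifnar1KO non-GC and 6.77 ± 2.61 in Sle1b non-GC cells (SD, n = 3 each). Cmah ran the other way, with 30.6 ± 27.6 in Ifnar1KO GC, 23.0 ± 25.3 in Sle1b GC, 66.5 ± 50.8 in Ifnar1KO non-GC and 63.9 ± 55.7 FPKM in Sle1b non-GC cells. St6gal1 averaged 65.3 ± 89.4 in Ifnar1KO GC, 66.0 ± 83.0 in Sle1b GC, 101 ± 101 in Ifnar1KO non-GC and 53.9 ± 64.8 FPKM in Sle1b non-GC cells. Ptprc averaged 388 ± 390 in Ifnar1KO GC, 402 ± 386 in Sle1b GC, 494 ± 384 in Ifnar1KO non-GC and 473 ± 383 FPKM in Sle1b non-GC cells. Between neighbours in each order, the larger of the pair's SDs exceeded the step between their means. These SDs run over batches that were normalized separately, so they include the offsets between batches. They leave out the pairing and do not measure the scatter of the within-batch differences given above.

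The enzymes around the GL7 epitope were read from lists chosen with earlier results of these data known. Of the 5 genes that supply activated sialic acid, all were tested and 0 passed for GC against non-GC in all 12 libraries or in batches 1 and 2. Their median log2 difference over both genotypes was -0.10, beside -0.254 for all genes. Medians and signs in these lists hold for the deposited scaling, and the pan B cell scaling raised the median of all genes to 0.235. Slc35a1, the Golgi transporter of activated sialic acid, differed by -0.63 (SE 0.69, adjusted p = 0.661, higher in 4 of 6 pairs), and by 0.06 without Ifnar1KO GC replicate 1. Of 19 sialyltransferases other than St6gal1, 12 loci were tested (St6galnac4 and St6galnac6 share 1), 9 of them below 0 with a median of -0.56. St6galnac1 was listed at 0 in all 12 libraries. St3gal1, which sialylates O-linked chains, averaged 6.25 FPKM in Ifnar1KO GC and 5.89 FPKM in Sle1b GC cells, against 20.4 FPKM in Ifnar1KO non-GC and 14.9 FPKM in Sle1b non-GC cells.

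St3gal1 was lower in GC cells in 6 of 6 pairs (-1.25, SE 0.36, limma adjusted p = 0.128), and it fell by 1.55 in batches 1 and 2 (adjusted p = 0.0416). St3gal6, which caps lactosamine chains, fell by 1.60 in batches 1 and 2 (adjusted p = 0.048) and differed by -1.0 (SE 0.72, adjusted p = 0.488) over all 12 libraries. These were the 2 of 10 sialyltransferase loci tested in batches 1 and 2 that passed, where 5.05% of all genes passed, and the list's median there was -0.82. St8sia4, which builds polysialic acid, differed by -1.30 (SE 0.44, adjusted p = 0.172) and St6galnac3 by -1.46 (SE 0.56, adjusted p = 0.213). Neither passed in batches 1 and 2, with -0.91 for St8sia4 and -1.71 for St6galnac3.

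Of 9 genes that build the lactosamine acceptor, 8 were tested and 0 passed in 12 libraries, with a median of -0.44. In batches 1 and 2 the median was -0.65, and 1 of 7 passed, beside 5.05% of all genes. B4galt3, a galactosyltransferase, differed by -1.95 (SE 0.45, adjusted p = 0.0908, lower in 6 of 6 pairs), and by -2.11 in batches 1 and 2 (adjusted p = 0.0697). The locus of B3gnt2, which extends lactosamine chains and shares its locus with Commd1, Gm12057 and Gm28048, fell by 1.38 in batches 1 and 2 (adjusted p = 0.0436). Over all 12 libraries it differed by -0.47 (SE 0.50), and by 0.71 under the pan B cell scaling. Of 4 sialidases, which remove sialic acid, Neu1 was tested (-0.22, SE 0.44, adjusted p = 0.825, and 0.28 under the pan B cell scaling) and Neu2 was listed at 0 in all 12 libraries. Of 5 sialic acid receptors, 3 were tested and 0 passed. Cd22, the inhibitory lectin of B cells that binds the sugar St6gal1 attaches, averaged 143 FPKM in Ifnar1KO GC and 190 FPKM in Sle1b GC cells, against 144 FPKM in Ifnar1KO non-GC and 130.0 FPKM in Sle1b non-GC cells. Its difference was -0.42 (SE 0.49, adjusted p = 0.682), and it was 0.26 in batches 1 and 2, 0.03 after quantile normalization and 0.65 under the pan B cell scaling.

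Of 11 genes of Fas signalling, 10 were tested, 0 passed in 12 libraries and 8 lay below 0. Their median was -0.29, beside -0.254 for all genes. In batches 1 and 2 it was -0.21, beside -0.341 for all genes. The share of all genes below 0 was not counted. Fcmr, the receptor for the Fc part of IgM, stands in the files under its older symbol Faim3. It averaged 82.0 FPKM in Ifnar1KO GC and 69.1 FPKM in Sle1b GC cells, against 172 FPKM in Ifnar1KO non-GC and 226 FPKM in Sle1b non-GC cells. Faim3 was lower in 6 of 6 pairs (-1.86, SE 0.59, limma adjusted p = 0.149). It fell by 1.38 in batches 1 and 2 (limma adjusted p = 0.0264). There it was the 1 gene that passed of the list's 10 tested, beside 5.05% of all genes. Casp8, the initiator caspase, differed by -1.59 (SE 0.46, adjusted p = 0.128, lower in 5 of 6 pairs) and Faim, an inhibitor of Fas-induced death, by -1.51 (SE 0.41, adjusted p = 0.115, lower in 6 of 6 pairs). Neither passed in batches 1 and 2, with -1.01 for Casp8 and -1.58 for Faim. The ligand gene Fasl was below the filter and listed at 0 in 8 libraries. Of 9 substrates and partners of CD45, 9 were tested and 0 passed in either set of libraries (median -0.65, and -0.62 in batches 1 and 2). The Src family kinase Lyn differed by -1.38 (SE 0.41, adjusted p = 0.132, lower in 6 of 6 pairs) and its relative Fyn by 1.09 (SE 0.59, adjusted p = 0.35). Lyn differed by -0.94 and Fyn by 1.40 in batches 1 and 2. Of 6 factors known to act on the variable exons of CD45, 6 were tested and 0 passed in either set of libraries. Their median was -0.47 in all 12 libraries and 0.10 in batches 1 and 2. Thrap3 differed by -0.83 (SE 0.56, adjusted p = 0.46) over all libraries and by 0.10 in batches 1 and 2.

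Of 8 other surface proteins used to gate GC B cells, 0 passed in 12 libraries, and 2 higher and 3 lower passed in batches 1 and 2, beside 5.05% of all genes. Fcer2a, the low-affinity IgE receptor CD23, fell by 2.15 there (adjusted p = 0.0112) and the ectoenzyme Cd38 by 1.29 (adjusted p = 0.048). The costimulator Cd86 rose by 1.61 (adjusted p = 0.0295) and the ectonucleotidase Nt5e (CD73) by 2.82 (adjusted p = 0.0164). Over all 12 libraries the differences were -2.51 (SE 0.43) for Fcer2a, -1.11 (SE 0.42) for Cd38, 1.38 (SE 0.41) for Cd86 and 2.12 (SE 0.48) for Nt5e. In size, the change of Cmah in batches 1 and 2 was close to that of Cd38, and the change of Fas close to that of Nt5e. The likeness of Fas and Nt5e depends on the pseudocount. Over all 12 libraries Nt5e differed by 3.61 and Fas by 1.80 with a pseudocount of 0.1. With a pseudocount of 5 they differed by 0.96 and 1.22. Nt5e averaged 0.464 FPKM in Ifnar1KO non-GC and 0.11 FPKM in Sle1b non-GC cells.

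**Figure D5:**
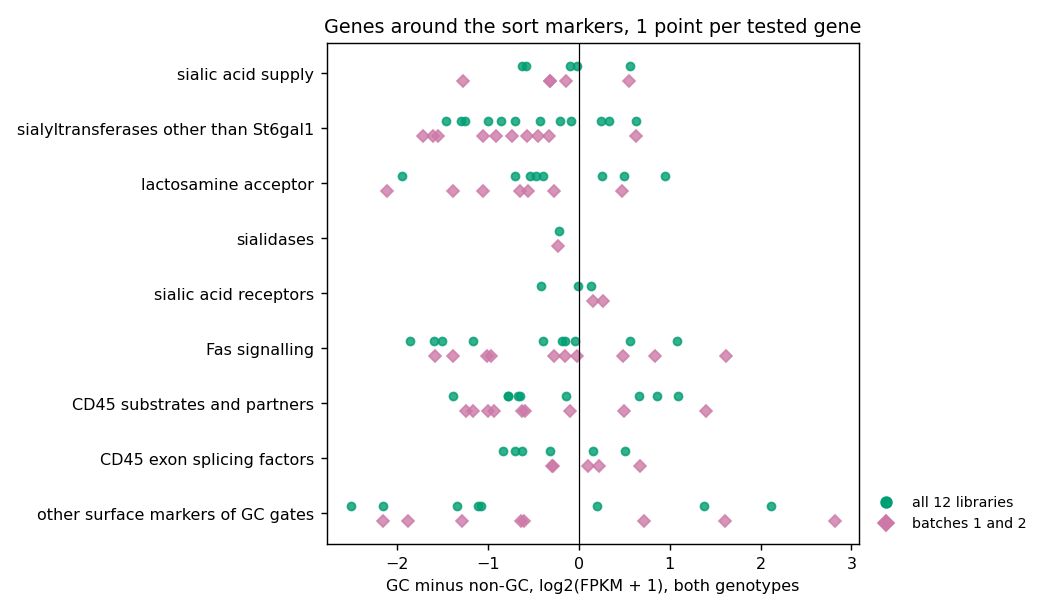
Log2 differences between GC and non-GC cells over both genotypes for each tested gene of the lists around the sort markers, in all 12 libraries (circles) and in batches 1 and 2 (diamonds). The other surface markers of GC gates spread widest, from -2.51 to 2.12 in all 12 libraries.

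The genes whose pattern was most like each member were ranked by Pearson's r over the 12 libraries after removing each batch's mean, as a description. Libraries of 1 batch share their normalization. For Ptprc the differences between GC and non-GC cells were far larger in batch 3 (-4.34 in Ifnar1KO and -3.43 in Sle1b) than in the other batches. Every r with Ptprc therefore rests largely on batch 3, whose GC libraries were low in pan B cell markers. No r is given for batches 1 and 2 alone. Among the genes most like Fas were the kinetochore motor Cenpe (r = 0.907) and the joining chain gene Igj (0.901). Cmah was followed by Cd55 (0.961), which restrains complement and was itself lower in GC cells (-2.60, SE 0.36, adjusted p = 0.0325), Zfp292 (0.958) and the kinase Stk17b (0.951). Ptprc was followed by Clk4 (0.987), Zfp644 (0.986) and the protease Ctsh (0.985), and St6gal1 by Smc6 (0.948), the lysosomal enzyme Gusb (0.939) and Celf2 (0.929). Among the members themselves r was 0.654 between Ptprc and St6gal1, 0.579 between Ptprc and Cmah, 0.341 between Cmah and St6gal1, 0.02 between Fas and Ptprc, -0.155 between Fas and St6gal1 and -0.49 between Fas and Cmah.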

How the data were processed

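RNA was measured in 12 libraries of sorted splenic B cells. The build was GRCm38 (mm10). The tools named in the submitters' processing notes are Cufflinks 2.2.1 with Cuffdiff, TopHat2 2.0.9, Bowtie2 2.1.0 and CASAVA, and strandedness is not given in the sources used here. Each of 17 deposited tables gave, per locus, the FPKM of 2 libraries of 1 batch as normalized by the authors, together with a p-value and a q-value from the authors' own test. Per the labels' protocols, cDNA came from an ultra-low-input SMARTer kit and libraries from Nextera XT. The direct table of Sle1b GC against non-GC cells in batch 1 was not used here, so that ratio runs through the other tables.

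Loci of 1 symbol were summed, symbols sharing a locus kept together, 9 failed items left out, and log2(FPKM + 1) joined within each batch by least squares on library and table. Items reaching 1 FPKM in 3 or more libraries were tested with limma 3.58.1 (R 4.3.3; trend, batch block, two-sided), and the script was tested on simulated data. Batches come from the deposited tables, which pair libraries only within them; deviations from the group means were also correlated within each batch (lowest r 0.276, 0.398 and 0.525). Depth was read from the steps of low values: 100% lay within 0.1 of a whole read, and 1 read on 1 kb was worth 0.109 to 0.402 FPKM. Alternatives covered the pseudocount, the filter, the block, the trend, 3 scalings, the joining of tables and loci, and leaving out each library or batch. The members and the gene lists were chosen with earlier results of these data known. Named from a list were up to 3 of its genes with the largest absolute difference between GC and non-GC cells, and those not measured or listed at 0; genes named for passing in batches 1 and 2 (St3gal6, B3gnt2, Cd38, Cd86) were chosen after their values were seen. Some items that the rule selects are not reported here. Fcmr was matched through its older symbol in RefSeq. Sequences come from RefSeq (GRCm38.p6) and GENCODE M21. Exact tests flipped the signs of within-batch differences, each pair on its own, although pairs of 1 batch may not be independent.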

Additional observations from a re-analysis of the deposited data

Results flagged for a closer look

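St6gal1 stood out because its difference between GC and non-GC cells had 1 sign in every batch of a genotype and the other sign in every batch of the other genotype. The mean difference on the log2(FPKM + 1) scale was -1.58 in Ifnar1KO (lower in GC cells in 3 of 3 batches) and 0.227 in Sle1b (higher in 3 of 3 batches). The directions themselves are not a test and were not tested further. The share of all genes with such opposite signs was not counted, so the rarity of this pattern is not known. The interaction term of limma, which is the test of the difference, gave -1.81 (SE 0.79, adjusted p = 0.994), and -1.16 in batches 1 and 2. In Sle1b the differences in single batches were 0.09 to 0.34, and the fitted difference of 0.227 is smaller than its standard error of 0.56. The largest difference in Ifnar1KO, in batch 3, rests on about 8 reads in the GC library.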

How the results depend on the processing

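Beside the fit reported above, 27 alternatives were run. Of the log2 differences of single genes recomputed, 1135 kept their direction and their side of the threshold, 17 passed it only under the alternative and 34 changed sign. None of the 44 differences passed in the reported fit, so those that kept their side passed in neither fit. The count of 1135 is thus no measure of how firm a call is. For GC against non-GC over both genotypes, 4 genes passed as reported, 1 with a pseudocount of 0.1, 26 with 5, 1 with no filter, 27 with a filter at 5 FPKM, 58 with the mean over tables, 2 with pan B cell scaling, 0 without batch 1 or without batch 2, 1 without batch 3 and 620 without batch 3 with the filter redone; leaving out 1 library gave 1 to 13, with 13 without replicate 3 of either GC group. For Ifnar1KO the 3 genes became 1 with either pseudocount and with no filter, 0 with quantile, median-ratio or pan B cell scaling and without batch 1, 2 or 3, and 40 with the filter redone; leaving out 1 library gave 0 to 3. For Sle1b the count of 0 became 2 with a filter at 5 FPKM, 1 with pan B cell scaling and 13 with the filter redone, for Ifnar1KO against Sle1b in GC cells 1 with the filter redone, and leaving out 1 library gave 0 to 1 in Sle1b, in both genotype comparisons by cell type and for the interaction. The cause of these shifts was not tested.

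With no replicate block, 0 genes passed over both genotypes and 0 in Ifnar1KO; the 4 members kept their log2 differences and were not called, as with the block.

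Fas (2.57) and Cmah (-1.38) passed for GC against non-GC only without batch 3 with the filter redone. Pan B cell scaling turned the difference of St6gal1 to 0.12, Cmah in Ifnar1KO to 0.0185, Fas between genotypes in non-GC cells to 0.0367, B3gnt2 to 0.71, Cd22 to 0.65 and Neu1 to 0.28. Quantile normalization turned Cd22 to 0.0301. Median-ratio scaling turned Cmah between genotypes in non-GC cells to -0.0058, and without batch 1 it was -0.18. Without batch 1 B3gnt2 was 0.13. Without batch 2 Fas between genotypes in non-GC cells was 0.39 and Neu1 0.18. Without batch 3, with either filter, Cd22 was 0.26 and Thrap3 0.10.

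Leaving out 1 library moved the genotype difference in non-GC cells between -1.65 and 0.81 for Fas, -0.68 and 0.90 for Ptprc and -0.22 and 0.20 for Cmah, and in GC cells between -0.29 and 1.23 for Fas and -0.90 and 0.69 for Ptprc. It moved the interaction between -0.29 and 2.16 for Fas and -1.14 and 0.54 for Ptprc, and GC against non-GC between -1.37 and 0.0635 for Slc35a1, -0.49 and 0.0134 for Neu1 and -0.67 and 0.0027 for Cd22. Depth limits Fas in non-GC cells and in the Sle1b GC library of batch 3. It also limits St6gal1 and Ptprc in the GC libraries of batch 3, and St6gal1 in the Sle1b non-GC library of batch 3.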
